A study of Caenorhabditis elegans with 2 samples.

Results

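The 10 genes described here encode the subunits of the C. elegans dosage compensation complex (sdc-1, sdc-2, sdc-3, dpy-21, dpy-26, dpy-27, dpy-28, dpy-30, mix-1 and capg-1), and the question was where the tagged zinc finger protein ZNF-207, the product of B0035.1, gave peaks in and around them. They were chosen by name from the known composition of the complex and were set against the other 19963 of the 19973 nuclear protein-coding genes of the WBcel235 annotation. The data are chromatin immunoprecipitation with sequencing (ChIP-seq) of whole young adult hermaphrodites of strain xtl1186, in which ZNF-207 carries a C-terminal GFP-FLAG tag. The tagged protein was recovered with an anti-GFP antibody from sonicated chromatin, from animals grown for 50 hours after synchronization as starved L1 larvae. There was 1 group of 2 biological replicates, and both carried the tag. The labels do not give the promoter of the tagged gene, and no untagged or input sample was used here, so the peaks stand beside the rest of the genome and not beside a control.

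Hermaphrodites have a pair of X chromosomes and males have a single X. In the somatic cells of hermaphrodites the dosage compensation complex binds both X chromosomes and lowers their expression so that it matches that of the male X. SDC-2, with SDC-3 and DPY-30, brings the complex to X, and a condensin called condensin DC, built from DPY-27, MIX-1, DPY-26, DPY-28 and CAPG-1, spreads along the chromosome. All but DPY-27 of these condensin subunits also serve in mitotic condensin, so the complex shares most of its parts with the machinery of chromosome segregation. Whole animals mix somatic cells with a large germ line, and a peak here cannot be assigned to either.

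Each of the 4 peak lists used (thresholded, pooled, replicate 1 and replicate 2, all in the ce11 build, which is WBcel235) gives a summit and a signal per peak. The thresholded list held 750 peaks, which were the 750 strongest of the pooled list, with signals of at least 88.6. The pooled list and the replicate 1 list held 30000 peaks each and the replicate 2 list held 25036. These long lists hold background as well as peaks by their own description: only 10.5% of the pooled peaks, 3147, had a deposited q-value of at most 0.05. Signals are the authors' own values and their scale differs between lists, so lists are compared by rank (1 for the strongest peak). The lists carry no read counts, and the depth of each library is therefore unknown.

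The promoter window of a gene reached 500 bp before and 200 bp past its outermost start. In the pooled list 8 of the 10 genes had a summit in this window, where 26.1% of the other protein-coding genes had one. The exceptions were sdc-3 and dpy-21. Replicate 1 placed a summit in 7 of the windows against 26.0% of the other genes, and replicate 2 in 6 against 21.6%. In both replicates at once there were 5 such genes, sdc-1, sdc-2, dpy-28, mix-1 and capg-1, against 13.2%.

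The same windows held no thresholded peak, and among the other genes only 1.64% had one. With peaks limited to a q-value of at most 0.05, a limit chosen after the values were seen, the pooled list kept 2 of the 10 windows, those of sdc-2 and dpy-28, against 5.48% of the other genes. The share of dosage compensation genes with a window summit was thus above that of other genes in the pooled and replicate lists, and in the pooled list 6 of the 8 genes had no window peak within the q limit. No test was made of these counts, because the design has 1 group and the genes share libraries.

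**Figure D1:**
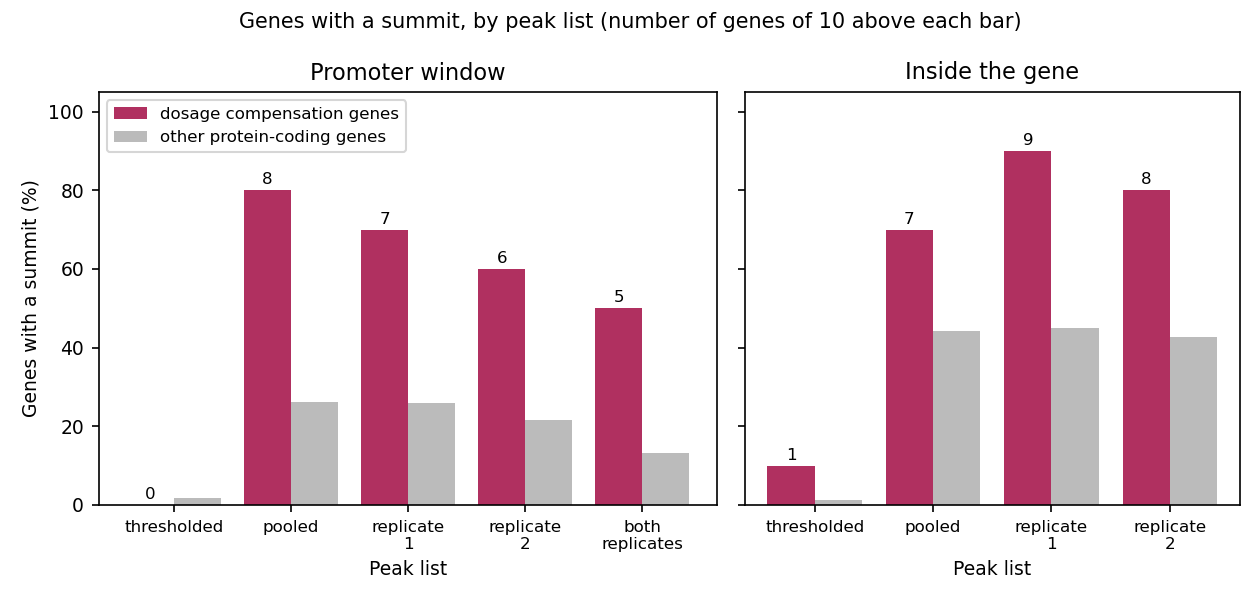
Percentage of genes with a summit in each peak list, in the promoter window (left) and inside the gene (right), for the 10 dosage compensation genes (red bars, number of genes above each) and the 19963 other protein-coding genes (grey bars). The red bars stand at 6 to 8 genes in the windows of the pooled and replicate lists, and at 0 in the thresholded list.

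The strongest window peak lay at sdc-2, which encodes the large coiled-coil protein that is made in hermaphrodites and starts the assembly of the complex on X. The gene lies on the X chromosome from 11522707 to 11533450 on the plus strand. Its window summit lay 439 bp upstream of the start in the pooled list (signal 85.3, rank 822), 478 bp upstream in replicate 1 (signal 52.0, rank 1005) and 494 bp upstream in replicate 2 (signal 31.5, rank 1302). These values place sdc-2 just below the thresholded set, whose lowest signal was 88.6, and the replicate summits were 16 bp apart. Its −log10 q in the pooled list was 2.47, the highest value the list gives, which 1607 pooled peaks shared. Among all protein-coding genes ordered by their strongest window signal, sdc-2 came 355th in the pooled list, 416th in replicate 1 and 451st in replicate 2. The nearest start on the opposite strand, that of hpo-34, lay 3641 bp away, so this summit belonged to no other promoter window. Inside the gene the pooled peaks were weak, at 5110 bp from the start (rank 28250) and in an intron at 9053 bp (rank 15800), and replicate 2 had none there.

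The 101 bases around the pooled window summits of sdc-2 and sdc-1 are shown because these are the 2 members on X and both had a window summit in each replicate. They are reference sequence of WBcel235 on the plus strand, at chrX:11522218-11522318 for sdc-2 and chrX:16275321-16275421 for sdc-1, with the words GAGAGA and TCTCTC, which are the same word on opposite strands, in capitals.
sdc-2: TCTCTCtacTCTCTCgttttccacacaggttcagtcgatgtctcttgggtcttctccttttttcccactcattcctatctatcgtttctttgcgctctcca
sdc-1: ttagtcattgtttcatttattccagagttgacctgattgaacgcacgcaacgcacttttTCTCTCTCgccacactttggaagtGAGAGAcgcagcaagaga
Both sequences hold the word, on either strand, as did 18.7% of the 731 nuclear thresholded peak centres and 8.15% of the 29980 nuclear pooled centres of the same length. The centres of the window summits of the other members were not looked at singly, so no share of the members can be set beside these. A letter match is a description of these windows and not a binding site.

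SDC-1 is a zinc finger protein of the complex that also takes part in turning off her-1, the gene of the male fate signal. The gene lies on X from 16275763 to 16282534 on the plus strand. Its window summit lay 392 bp upstream in the pooled list (signal 38.8, rank 5668), 267 bp upstream in replicate 1 (signal 17.9, rank 14151) and 393 bp upstream in replicate 2 (signal 18.3, rank 6608). The pooled and replicate 2 summits fell in nearly the same place, while that of replicate 1 was 126 bp from replicate 2 and far lower in its list. A stronger pooled peak lay 4367 bp upstream (signal 58.3, rank 2047), 29 bp from a tRNA gene (WBGene00014388), and it was present in replicate 1 at rank 3000 and in replicate 2 at rank 2123. The window summit itself was 802 bp from the nearest tRNA gene and in no other promoter window, the nearest opposite-strand start, that of ifa-3, being 5694 bp away.

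The third recruitment gene gave a different picture. SDC-3 is a zinc finger protein that binds X with SDC-2, and its gene lies on chromosome V from 15039148 to 15048207 on the minus strand. No list had a summit in its promoter window, and the pooled list had none over its whole length of 9060 bp. Of the 1215 other genes at least as long, 152 (12.5%) likewise had no pooled summit. Replicate 1 listed 5 weak summits inside the gene, with signals of 12.1 to 15.9 and ranks from 17737 to 27194, and replicate 2 listed none. The nearest thresholded peak was 37391 bp upstream, and the nearest opposite-strand start, that of C25D7.5, was 4443 bp away.

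In the pooled list window summits were not more frequent on X, where sdc-1 and sdc-2 lie, than elsewhere. Of the 2729 other protein-coding genes on X, 663 (24.3%) had a pooled window summit, and of the 17234 on the autosomes 4557 (26.4%) had one.

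**Figure D2:**
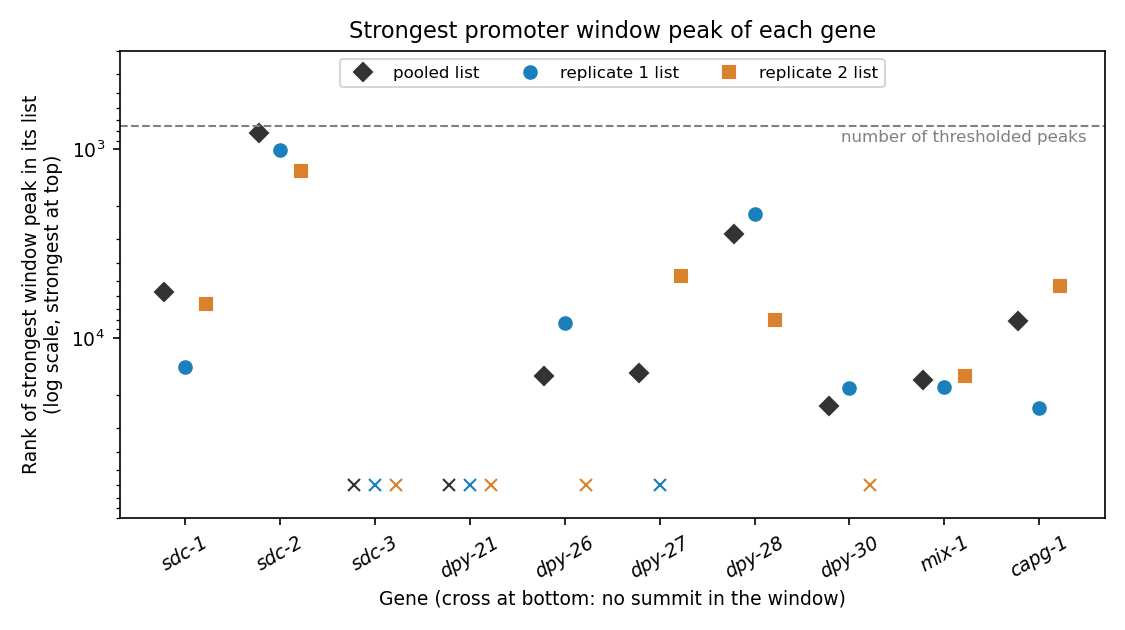
Rank of the strongest promoter window peak of each gene in its own list (log scale, strongest at the top), for the pooled list (diamonds), replicate 1 (circles) and replicate 2 (squares); crosses mark lists with no summit in the window and the dashed line marks the 750 thresholded peaks. The points of sdc-2, at ranks 822 to 1302, lie nearest to the line, and sdc-3 and dpy-21 have crosses only.

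Among the condensin subunits, dpy-28 had the peak closest to a start. DPY-28 is the HEAT-repeat subunit related to CAP-D2 and serves in both mitotic condensin and condensin DC. The gene spans 13946 bp of chromosome III, from 10763131 to 10777076 on the plus strand. Its window summit lay 4 bp downstream of the start in the pooled list (signal 50.9, rank 2819), 1 bp downstream in replicate 1 (signal 38.1, rank 2208) and 4 bp downstream in replicate 2 (signal 17.1, rank 7996). The position agreed within 3 bp between the replicates, but the rank in replicate 2 was much lower. As a gene, dpy-28 ranked 1008th in the pooled list, 842nd in replicate 1 and 1821st in replicate 2. The pooled peak had a −log10 q of 1.45.

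Inside dpy-28 the pooled list had 12 summits, 8 of them in introns, 3 in coding exons and 1 in the 5′ UTR, and 86 (17.3%) of the 497 other genes at least as long had 12 or more. The strongest after the start peak lay 2012 bp into the gene (signal 48.6, rank 3192), with a replicate 1 summit at 2023 bp (rank 1839) and the closest strong one of replicate 2 at 2369 bp (rank 4106). A thresholded peak lay upstream of dpy-28, from 10759075 to 10759453 on chromosome III, with its summit 3893 bp from the dpy-28 start. It was among the strongest of each list, at rank 21 of the thresholded list, 20 of replicate 1 and 24 of replicate 2. That summit is in the promoter window of tasp-1, which encodes a threonine aspartase, lies 109 bp upstream of dpy-28 on the same strand and starts 3824 bp before it. The strong peak was thus at the start of the neighbour and the weaker one at the start of dpy-28 itself. On the opposite strand the nearest start was that of K01G5.10, 4609 bp away.

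MIX-1, the SMC2 subunit shared by all worm condensins, has the longest of these genes, 17179 bp on chromosome II from 10824246 to 10841424 on the plus strand. Its promoter window had pooled summits at 317 bp (signal 24.2, rank 16581) and 74 bp upstream (signal 18.6, rank 25690). Replicate 1 had a window summit 133 bp upstream (signal 15.7, rank 18249) and replicate 2 had one 317 bp upstream (signal 12.9, rank 15885), 184 bp from it. These are low in their lists, and every one also lies in the window of R06F6.12, a gene that starts 165 bp away on the opposite strand.

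The only thresholded summit inside any of the 10 genes was at the other end of mix-1, 16018 bp from its start, where 1.23% of the other protein-coding genes had one somewhere in their length. Among the 289 other genes at least as long as mix-1, 19 (6.57%) had a thresholded summit. The peak runs from 10840034 to 10840493 on chromosome II with its summit at 10840264. Its signal was 113 in the thresholded and pooled lists (rank 388 in each), 61.8 in replicate 1 (rank 649) and 47.4 in replicate 2 (rank 373). The replicate 1 summit was at the same base and the replicate 2 summit 2 bp further on. It lay in an intron of 224 bp, from 10840243 to 10840466, and 22 bp past the exon before it.

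That intron also holds M106.6 (WBGene00014447), a snoRNA gene of 75 bp from 10840317 to 10840391 on the plus strand, whose near end was 53 bp from the summit. snoRNAs guide the chemical modification of other RNAs, and in worms many lie in introns of protein-coding genes. Across the genome 59 (17.1%) of 346 nuclear snoRNA genes had a thresholded summit within 200 bp, and among the 216 that lie inside a protein-coding gene 31 (14.4%) had one. Most snoRNA genes thus had no such peak. Both shares were above the 1.64% of other protein-coding genes with a thresholded summit in their promoter window, a stretch of another size. Whether the peak here relates to mix-1 or to M106.6 was not tested.

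The sequence around this summit and the snoRNA beside it are shown because this is the only thresholded peak in a dosage compensation gene. Both are WBcel235 reference sequence on the plus strand, the 101 bases around the summit at chrII:10840214-10840314 and the snoRNA at chrII:10840317-10840391. Capitals mark AGTGGTTA and GGTTCGA, words picked out after the sequence was read.
mix-1 intron: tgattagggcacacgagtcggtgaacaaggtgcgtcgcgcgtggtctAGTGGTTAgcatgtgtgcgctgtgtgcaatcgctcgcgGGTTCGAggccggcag
M106.6: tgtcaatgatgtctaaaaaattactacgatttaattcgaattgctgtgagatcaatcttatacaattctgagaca
GGTTCGA is the core of the internal box B promoter of tRNA genes, bound by the RNA polymerase III factor TFIIIC, and it ends 11 bp before M106.6. On the sense strand it is present in 395 (64.5%) of 612 nuclear tRNA genes, and on either strand in 400 (1.33%) of 29980 pooled peak centres. AGTGGTTA begins at base 48 of the window and is present in 131 (21.4%) of the tRNA genes and in 134 (0.447%) of the pooled centres. Among thresholded centres by a snoRNA gene and no tRNA gene, this one included, 5 of 60 held GGTTCGA and 3 of 60 held AGTGGTTA. By a tRNA gene the counts were 53 and 18 of 149, and by neither 10 and 3 of 522. The RefSeq annotation lists no tRNA gene within 1000 bp of this summit, and M106.6 is the only noncoding RNA it gives there.

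**Figure D3:**
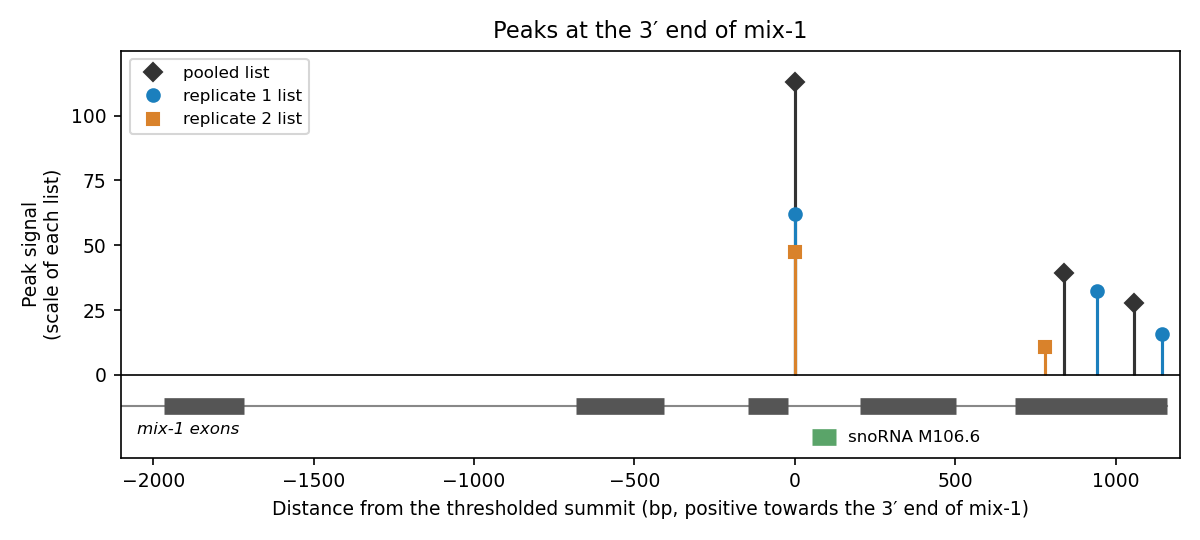
Peak signal (vertical axis, on the scale of each list) against distance in bp from the thresholded summit at the 3′ end of mix-1, with the mix-1 exons (dark boxes) and the snoRNA gene M106.6 (green box) drawn to scale below. The pooled and replicate 1 summits stand at 0, between exons and 53 bp before the snoRNA, and the replicate 2 summit 2 bp to their right.

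DPY-27, the SMC4 relative that exists only in the dosage compensation condensin, is encoded on chromosome III from 3813018 to 3819679 on the minus strand. Its window held a pooled summit 103 bp upstream (signal 25.3, rank 15226) and a replicate 2 summit 106 bp upstream (signal 20.4, rank 4703), while replicate 1 had none. A stronger pooled peak lay outside the window, 678 bp upstream (signal 48.3, rank 3241). Replicate 1 had its nearest summit there, 769 bp upstream at rank 1772, and replicate 2 had one 679 bp upstream at rank 8305. The replicates thus differed in which of the upstream positions ranked higher. The nearest other start, that of amx-1 on the opposite strand, was 2724 bp away.

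DPY-26 is the kleisin that closes the condensin ring, and its gene lies on chromosome IV from 12445801 to 12451335 on the minus strand. The pooled list had a summit 363 bp upstream (signal 24.7, rank 15862) and a stronger one just beyond the window at 612 bp (signal 32.7, rank 8708). Replicate 1 had window summits at 184 bp (signal 22.8, rank 8272) and 436 bp upstream (signal 22.4, rank 8640). Replicate 2 had no window summit, its nearest being 612 bp upstream at rank 18204. No pooled summit lay inside the gene, and the nearest opposite-strand start, that of smz-1, was 3715 bp away.

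DPY-21 is a JmjC demethylase that acts on histone H4 lysine 20 of the compensated X chromosomes, and like sdc-3 its gene had no window summit in any list. It lies on chromosome V from 17936282 to 17949193 on the minus strand. Its 12912 bp held 13 pooled summits, 8 in coding exons and 5 in introns, with the strongest at 9879 bp (signal 41.1, rank 4898), 4195 bp (signal 38.4, rank 5823) and 947 bp (signal 35.6, rank 7054). Of 573 other genes at least as long, 77 (13.4%) had 13 or more. Each replicate listed 11 summits inside the gene, but only 3 of those in replicate 1 had one of replicate 2 within 200 bp.

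A thresholded peak lay between dpy-21 and its upstream neighbour Y59A8B.24, which starts 2756 bp away on the opposite strand. It spans 17951215 to 17951674 on chromosome V, with its summit 2252 bp upstream of dpy-21, at rank 230 of the thresholded list with a signal of 135. Replicate 1 had it 2258 bp upstream (signal 72.2, rank 423) and replicate 2 had it 2227 bp upstream (signal 62.0, rank 165). The pooled summit was just outside the promoter window of Y59A8B.24 and that of replicate 1 just inside it. The 101 bases around the pooled summit, chrV:17951395-17951495, are shown on the minus strand, the strand of dpy-21, since this is the thresholded peak nearest to the start of any of the 10 genes; capitals mark TCTCTC.
dpy-21 upstream: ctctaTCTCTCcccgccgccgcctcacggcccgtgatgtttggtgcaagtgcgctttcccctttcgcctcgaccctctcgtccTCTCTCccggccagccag
Its G and C content was 66.3%, against 45.5% at the sdc-2 summit and 44.6% at that of sdc-1, while all of these hold the GAGAGA word on either strand. The mix-1 intron sequence shown above, with 61.4% G and C, does not hold the word.

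DPY-30 is a small protein shared between the complex and the SET1/MLL enzymes that methylate histone H3 lysine 4, and its gene, at 867 bp, is the shortest here. It lies on chromosome V from 12191519 to 12192385 on the plus strand. Its window summits were 441 bp upstream in the pooled list (signal 20.05, rank 23004) and 64 bp downstream in replicate 1 (signal 15.5, rank 18480), and replicate 2 had none. A stronger pooled peak lay just past its 3′ end, 912 bp from the start (signal 60.3, rank 1885), in the window of rnp-1, which starts 754 bp into dpy-30 on the same strand. Near it replicate 1 had a summit at 1043 bp (rank 2346), in a coding exon of rnp-1 and past its window, and replicate 2 had summits at 809 bp (rank 1838), inside both genes and in the rnp-1 window, and at 1023 bp (rank 6282). In the pooled list the stronger peak was thus in the window of an adjacent gene, as at dpy-28. The nearest start on the opposite strand, that of ZK863.8, was 4003 bp away.

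CAPG-1, the CAP-G subunit of mitotic condensin and condensin DC, is encoded on the remaining chromosome of the set, chromosome I, from 7634492 to 7639785 on the minus strand. Its window summit lay 320 bp upstream in the pooled list (signal 33.6, rank 8146), 355 bp upstream in replicate 1 (signal 13.4, rank 23469) and 198 bp upstream in replicate 2 (signal 19.6, rank 5306). The summits of the replicates were 157 bp apart, and replicate 1 ranked its own far lower. The nearest opposite-strand start, that of lrp-1, was 25609 bp away.

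Stronger and better shared peaks lay at the 3′ end of capg-1. In the pooled list they were in a coding exon at 4499 bp (signal 59.0, rank 1982), in the 3′ UTR at 5221 bp (signal 43.1, rank 4304) and just beyond the gene at 5420 bp (signal 65.0, rank 1574). Replicate 1 had summits at 4485 bp (rank 4914) and 5397 bp (rank 3690), and replicate 2 at 4411 bp (rank 2115) and 5461 bp (rank 2280). All 3 of the replicate 1 summits inside capg-1 had a replicate 2 summit within 200 bp, those at 4485 and 4268 bp sharing the one at 4411 bp. Of the 4 replicate 2 summits inside the gene, 2 had a replicate 1 summit within 200 bp.

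Over their whole lengths, 7 of the 10 genes held a pooled summit, against 44.3% of the other protein-coding genes. In replicate 1 there were 9, all but sdc-1, against 45.1%, and in replicate 2 there were 8, all but sdc-2 and sdc-3, against 42.7%. With the q-value limit the pooled count was 3 (mix-1, dpy-28 and capg-1), against 6.58%. These genes are long, with a median of 7916 bp where the other genes have 2026 bp, and a longer gene has more room for a summit. The shares of other genes above are not matched for length. Among other genes at least as long as the member, 6.57% (mix-1) to 20.9% (capg-1) had no pooled summit. For dpy-30, the shortest member, this share was 51.3%. Of the members, dpy-26, dpy-30 and sdc-3 had no pooled summit inside. In total the pooled list placed 42 summits in the 10 genes, with 21 in introns, 17 in coding exons, 1 in a 5′ UTR and 3 in 3′ UTRs. Of the 43 summits of replicate 1, 17 had a replicate 2 summit within 200 bp. Over all other protein-coding genes, 6505 of 20705 such summits (31.4%) had one, against 39.5% here. At mix-1 this held for 6 of 9 and at dpy-28 for 4 of 8. Genes with more summits per length have more room for such pairs. The mix-1 pair at 4291 bp in replicate 1 and 4283 bp in replicate 2 also lies in an intron of VM106R.1, a protein-coding gene that overlaps mix-1.

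**Figure D4:**
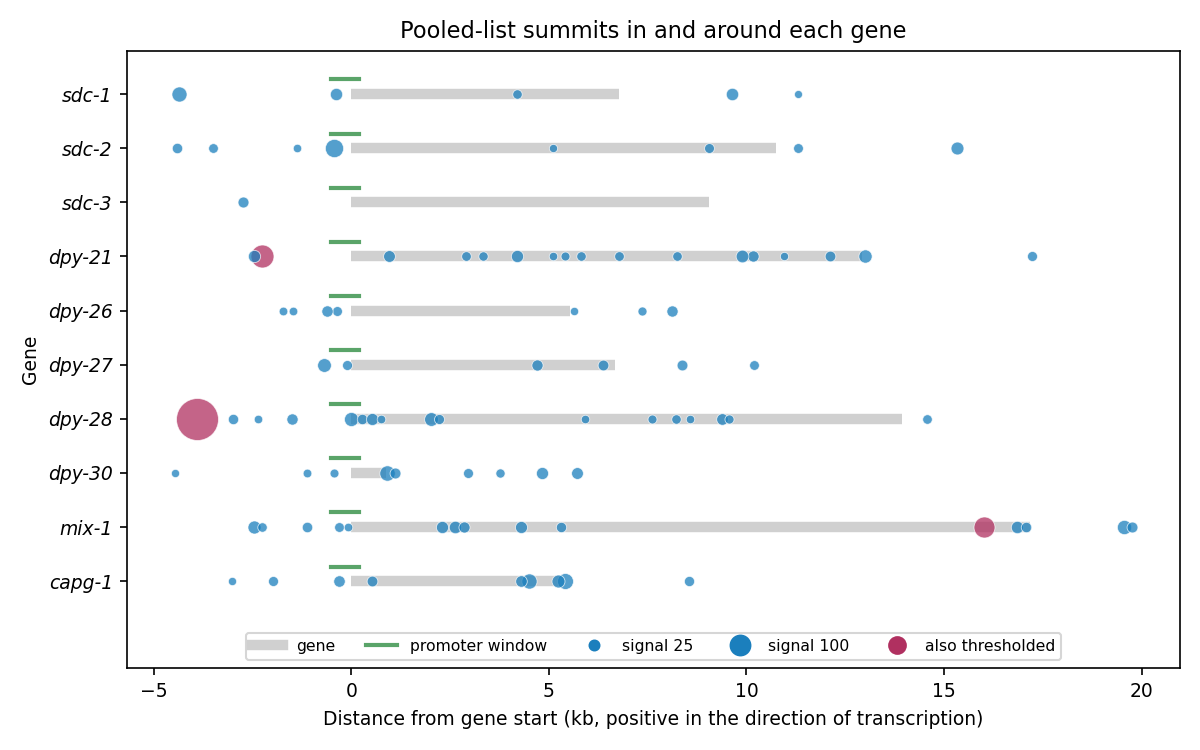
Pooled-list summits in and around each gene against distance from its start (kb, positive in the direction of transcription), with dot area proportional to signal and thresholded peaks in red. Red dots stand 3893 bp upstream of dpy-28, 2252 bp upstream of dpy-21 and 16018 bp into mix-1, and none stands in a promoter window (green bars).

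Genes with a window pattern most like that of the leading members were found by the distance between log10 ranks in the 2 replicates, over the 2633 protein-coding genes with a window summit in both. For sdc-2, at ranks 416 and 451, the closest were sym-4 (421 and 433) and F17E5.2 (436 and 447), both on X, and ceh-38 (434 and 423) on chromosome II. For dpy-28, at ranks 842 and 1821, they were gcst-1 (827 and 1799), F41E6.12 (837 and 1781) and lido-7 (880 and 1804). For sdc-1, at ranks 3125 and 1576, they were T10B5.7 (3105 and 1583), rpb-5 (3101 and 1631) and T23H2.3 (3042 and 1613).

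Promoter letters were searched in the 300 bases from 250 before to 50 from each start, on both strands. GCGCAGGG, the core of the motif that recruits the complex to X, was in none of the 10 promoters and in 0.105% of the others. GAGAGA was in 3 (dpy-26, dpy-28 and sdc-3) against 21.8% of the others, TTTTTTTT in 4 (dpy-21, sdc-1, sdc-2 and sdc-3) against 32.5%, TTTCAG in 7 against 51.7% and CACGTG in none against 5.82%. The promoter with the strongest peak, that of sdc-2, had no GAGAGA in these 300 bases, since its words lie further upstream.

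Genes that work with the complex were counted in the same way, in 5 lists with 54 genes matched in the annotation, to be read against the shares of all other genes given above (26.1% in the pooled list, 21.6% in replicate 2, 13.2% in both replicates and 1.64% in the thresholded list). Over all 54 genes there were 30 with a pooled window summit and 14 with one in both replicates. Among the 14 other condensin and cohesin genes, 9 had a pooled window summit and 5 had one in both replicates. The strongest was at wapl-1, the cohesin release factor (signal 81.2, gene rank 397), a summit it shares with htz-1, which encodes the histone variant H2A.Z. Next came hcp-6, a condensin II subunit (signal 61.5, gene rank 717).

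Other lists held the genes that act before and after sdc-2 in sex determination. Of 6 genes that take part in the signal of X chromosome number, 2 had a pooled window summit. They were ceh-39 (signal 46.6, gene rank 1212), an X-linked homeodomain signal gene, and sea-2 on chromosome II (signal 19.1, gene rank 4586). Only 1 of the 6 had one in both replicates. Of 12 genes that act downstream, 7 had a pooled window summit. The RNA-binding protein genes fog-1 (signal 30.4, gene rank 2553) and gld-1 (signal 28.8, gene rank 2753) led them. Replicate 1 had a window summit at gld-1 but none at fog-1, and replicate 2 had none at any of the 12.

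The last lists held partners of DPY-30 and chromatin genes. Of the 9 SET1/MLL complex genes, 5 had a pooled window summit and 4 had one in both replicates. The MLL-type methyltransferase gene set-16 was the only one of the 54 with a thresholded window summit, 162 bp upstream of its start (signal 230, gene rank 13 in the pooled list, 16 in replicate 1 and 17 in replicate 2), and this summit also lies in the window of drr-2. ash-2 had a thresholded summit 448 bp into the gene (signal 123, rank 289), in the window of Y17G7B.20. Of 13 genes of histone H4 lysine 20 methylation, H2A.Z and chromatin state, 7 had a pooled window summit and 4 had one in both replicates. The highest were set-4 (signal 87.6, gene rank 336), whose methyltransferase makes the mark that DPY-21 removes in part, and sir-2.1, a deacetylase gene (signal 82.9, gene rank 378).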

How the data were processed

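Peak lists in narrowPeak format were deposited by the authors in the ce10 and ce11 builds, and the ce11 lists were used. They comprise an IDR-thresholded list (irreproducible discovery rate, which keeps peaks that rank alike in replicates), a pooled list and 1 list for each of 2 replicates. The files have no header, and column meanings are those of the narrowPeak format. The deposited signal of each peak (column 7) ranked peaks within a list, the deposited −log10 q-value (column 9) gave the q limit, and the authors' summit offset in bp from the peak start (column 10) gave the summit. The aligner and the peak caller were not given in the sources used here, and the possible control named in the labels was not used here. Another label gives B0035.1 as the antibody, taken here as the target. Depth is unknown, since the lists give no counts.

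Genes came from Ensembl release 115 (WBcel235, the same assembly as ce11) and sequences from the RefSeq WBcel235 genome, with Python 3.11.15, pandas 2.3.3, numpy 2.4.6 and matplotlib 3.10.9. All coordinates are 1-based. A gene rank orders genes by their strongest window signal, genes without one being tied last. Summits that fall in windows of several genes count for each. The counting and ranking in promoter windows was tested on simulated peaks planted at genes with no other start close by. Shared windows and the counts inside genes were not tested in this way. No significance test was made: counts stand beside the share of the other nuclear protein-coding genes. All 10 members were named, with their opposite-strand neighbours, the 3 genes of closest pattern to each of the 3 best-ranked members, and in the related lists the genes with thresholded peaks or the 2 best ranked. The members and lists were chosen with earlier results of these data known. Alternatives were other windows, all transcript starts, the nearest gene only, peak intervals, the strongest 5000 peaks, each replicate alone and, chosen after seeing the data, a q limit of 0.05.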

Additional observations from a re-analysis of the deposited data

How the results depend on the processing

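The count of promoter windows with a pooled summit was 8, where 26.1% of other genes had one. It stayed 8 with a window of 1000 bp upstream (34.8%), all transcript starts (29.7%), the nearest gene only (23.6%) and peak intervals (34.5%). It was 6 in replicate 2 alone (21.6%) and 7 in replicate 1 alone (26.0%). It was 3 with a window of 200 bp upstream to 100 bp downstream (14.1% of other genes), 2 with the strongest 5000 peaks (7.85%) and 2 with a q limit of 0.05 (5.48%). The count in both replicates, 5, was 1 under each of these, dpy-28 in the narrow window (5.18% of other genes) and sdc-2 with the strongest 5000 peaks (3.90%) and with the q limit (2.60%). Otherwise it was 7 with the window of 1000 bp upstream (19.8%) and 6 with peak intervals (19.5%). It was 5 with all transcript starts (16.1%) and 4 with the nearest gene only (11.2%). A single replicate gives no such count. The count inside the gene, 7 (44.3%), was 4 with the strongest 5000 peaks (10.9%) and 3 with the q limit (6.58%). It was 9 with peak intervals (52.4%), 8 without replicate 1 (42.7%) and 9 without replicate 2 (45.1%). The thresholded window count was 0 under every alternative run. Gene ranks were compared for the 5 genes with a window summit in both replicates, where an alternative also gave one. Of 32 alternative ranks, 17 moved by no more than the SD between replicates and 15 by more. The ranks without a replicate, among these 32, are those in the list of the other replicate and are no separate check. The rank of sdc-2, 355, was 451 without replicate 1, 416 without replicate 2 and 288 with the nearest gene only, and it had no summit in the narrow window, since its summits lie over 200 bp upstream. That of dpy-28 ran from 527 to 1821. With 2 replicates, no control used here and no read counts, the lists cannot separate weak binding from background.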
